A study of Mus musculus with 18 samples.

Results

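Axon guidance genes encode the secreted and membrane-bound cues that steer growing nerve fibres and the receptors that read them. Of the 17198 genes in the deposited expression table, 69 had a symbol of the semaphorin, plexin, neuropilin, ephrin, Eph, Slit, Robo, netrin, Unc5 or Dcc families. They were taken by symbol alone, without regard to any measured value. They comprised 35 ligands, 33 receptors and 1 antisense RNA, Plxna4os1, whose symbol matches the plexin pattern. RNA came from cultures of mouse neurons from dorsal root ganglia (DRG), where the cells that carry touch, pain and position signals lie. Wild-type (WT) cultures and heterozygous (HET) cultures carrying 1 tm1a allele of Dynlrb1 were collected after 12, 24 and 48 h, with 3 cultures in each of the 6 groups. The gene product is a roadblock-type subunit of the dynein motor, which hauls cargo from the axon back to the soma. The tm1a design inserts a trapping cassette, and a heterozygous animal keeps an intact copy. The labels call the 3 samples of a group biological repeats. They give no age, and do not say whether animals were pooled, so p-values measure the spread between these samples.

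Guidance receptors sit on the growth cone, the motile tip of an axon. Secreted class 3 semaphorins act mostly through neuropilins paired with class A plexins, whereas membrane-bound semaphorins bind plexins directly. Ephrins and Eph receptors are both held in membranes and signal when cells touch. Slits repel axons through Robo receptors, and netrins attract through Dcc or repel through Unc5 receptors. DRG neurons use several of these systems while they grow toward skin, muscle and spinal cord, and again when a cut axon regrows.

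Dynlrb1, the targeted gene, was lower in the HET cultures. It had 5321 to 6674 normalized counts in the 3 WT cultures at 12 h and 3298 to 4087 in the HET cultures, and the genotypes did not overlap at any time. Averaged over the 3 times its log2 difference was -0.83 (limma adjusted p = 2.85e-05). All 12 sensory neuron markers searched for were measured, and their summed FPKM ran from 6260 to 9050 across the 18 cultures. Glial, fibroblast, endothelial and macrophage markers were also present, so the cultures were mixed. In such bulk samples, fewer cells of a type and less RNA per cell cannot be told apart. One library stood apart most: replicate 3 of HET at 48 h had a first principal component of -15.5, against 27.4 and 45.8 in the other HET cultures of that time. Its mean correlation was 0.981 with its own group and 0.990 with WT at 24 h. The main counts that rest on it, and the changes of several genes, are therefore given with and without it. Replicate 3 of WT at 48 h lay to the same side of its own group, with a first principal component of 43.9, against 73.8 and 85.6. The mean correlation of that WT culture was 0.987 with its own group and 0.982 with WT at 24 h.

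The guidance genes ran from percentile 1.66 to percentile 92.1 of all genes by mean FPKM, and receptors and membrane-held ligands headed their order. Levels are compared between genes in FPKM, which corrects for transcript length. Plxnc1, the receptor for the membrane semaphorin Sema7a, had the highest mean at 55.6 FPKM. It was followed by Efna1, an ephrin tethered by a lipid anchor, at 43.5 FPKM, and by the Slit receptor Robo2 at 36.7 FPKM. Next came the transmembrane semaphorin Sema6a at 34.8, the repellent ligand Slit1 at 26.0 and the semaphorin co-receptor Nrp1 at 25.3 FPKM. Sema6d, Sema4f, Plxna4 and Plxnd1 lay between 21.0 and 25.2 FPKM. The best-expressed members of the other families were lower. Sema3c had a mean of 18.8 FPKM, Ephb6, an Eph receptor without kinase activity, 9.17, and the netrin receptor Unc5b 8.49. Epha2 had 5.48, Efnb1 5.09 and Ntn4, a basement membrane netrin, 3.28 FPKM. At the low end, the netrin receptor Dcc had a mean of 0.0904 FPKM and the repellent Sema3a 0.0631 FPKM. Values of genes this low carry the least precision. Plxna4os1 had 0.112 FPKM. It lies antisense to Plxna4 and the sources do not state whether counting used strand, so its reads and those of Plxna4 cannot be told apart.

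**Figure D1:**
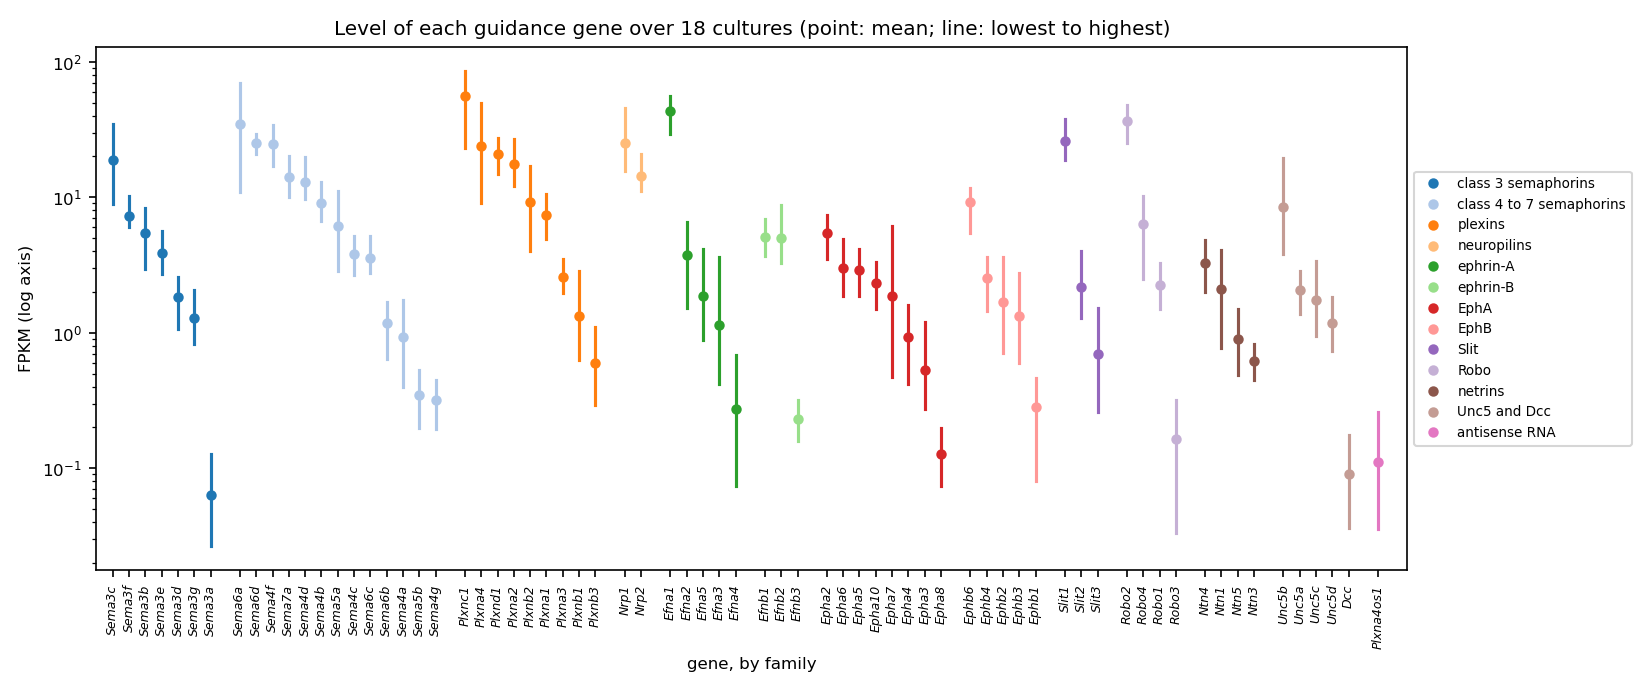
FPKM of each guidance gene on a log axis, grouped by family. Points are means over the 18 cultures and lines run from the lowest to the highest culture. Plxnc1, at 55.6 FPKM, heads the list and Sema3a, at 0.0631 FPKM, ends it.

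The largest movement of these genes was with time in culture. Between 12 and 48 h in WT, 33 of the 69 passed the limma test at an adjusted p of 0.05, 17 higher and 16 lower at 48 h. That share, 47.8%, lay beside 47.1% of all genes tested, so the guidance genes changed about as often as the rest. Receptors made up 20 of the 33 and ligands 13. The split by direction was more even than over all genes, where 30% were higher and 17.1% lower. No difference from other genes was tested. The median log2 change of the 69 was 0.095, against 0.11 for all genes. With the authors' plain adjusted columns, a second scaling, the median of all genes was 0.007 and that of the 69 was -0.011. Log2 changes below are on the normalized count scale with 1 added, and stand beside that shift of about 0.11.

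In HET, 15 members passed between 12 and 48 h, 11 higher and 4 lower, beside 14.2% of all genes. Without replicate 3 of HET at 48 h, 28 passed, 19 higher and 9 lower, beside 28.4% of all genes. None passed when replicate 1 or 2 of HET at 48 h, or replicate 2 of HET at 12 h, was left out instead. Every HET call from 12 to 48 h that is named below with all cultures kept was therefore lost without any one of those 3 cultures. The same 11 genes were higher, and the same 4 lower, in both genotypes. The first set was 11 of the 69, beside 10.1% of all genes, and the second 4 of the 69, beside 3.48%. The first was 11 of 17 higher genes in WT and 11 of 11 in HET. Over all genes, 1737 were higher in both genotypes, out of 5152 in WT and 1820 in HET. The second was 4 of 16 lower genes in WT and 4 of 4 in HET. Over all genes, 598 were lower in both genotypes, out of 2946 in WT and 622 in HET. The higher set held Sema3c, Sema4b, Plxnb1, Plxnb2, Epha7, Ephb2, Ephb3, Slit3, Robo3, Ntn1 and Unc5b. The lower set held Sema4a, Sema5a, Epha4 and Epha6. Without replicate 3 of HET at 48 h, 16 were higher in both genotypes, beside 17.9% of all genes, and 9 lower, beside 7.75%. Efna4, Epha3, Nrp1, Plxna4 and Plxnb3 then joined the higher set. Efna1, Ephb6, Plxnc1, Robo2 and Robo4 joined the lower set.

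**Figure D2:**
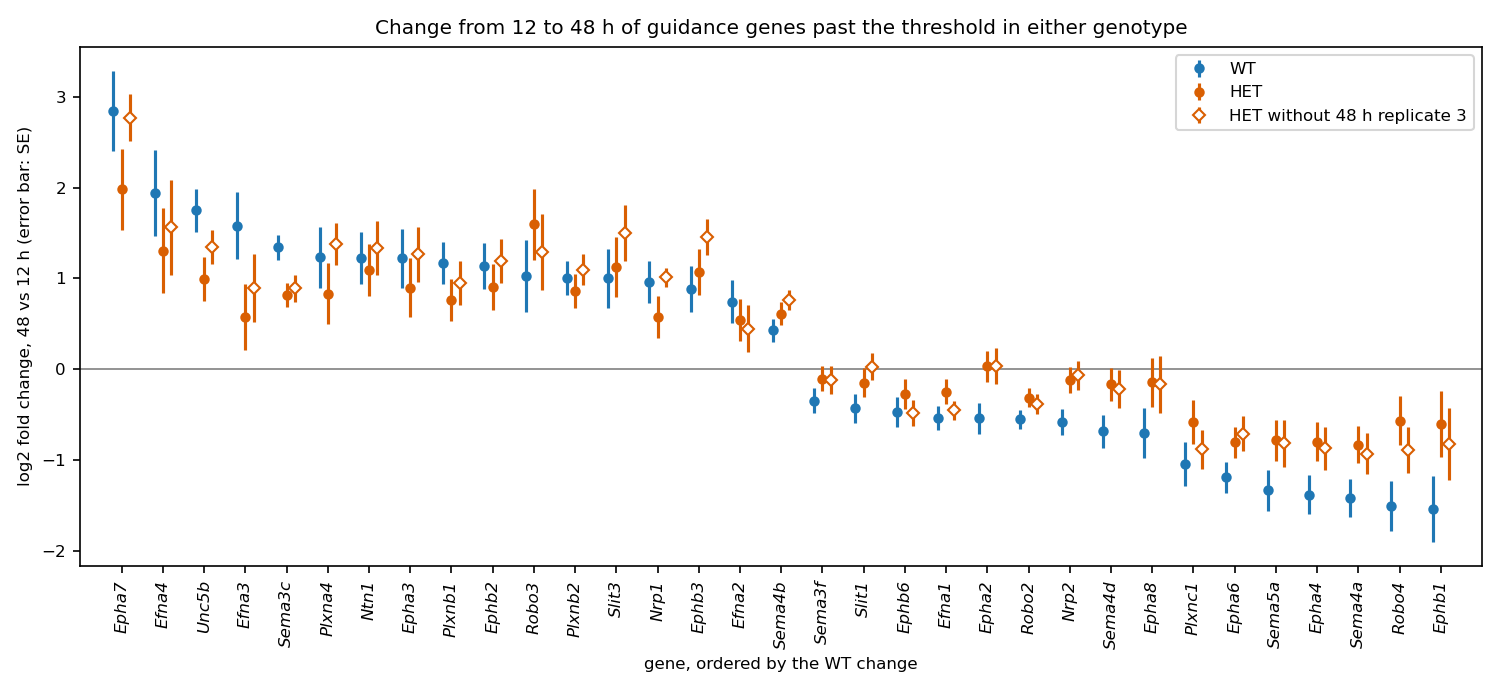
Log2 fold change from 12 to 48 h, with its standard error, of each guidance gene past the threshold in either genotype, ordered by the WT change. Filled circles are the 3 against 3 comparisons and open diamonds leave out replicate 3 of HET at 48 h. Epha7 leads at 2.84 in WT, and its HET value moves from 1.98 to 2.77 without that culture.

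Among class 3 semaphorins, 1 of 7 rose and 1 fell in WT. Sema3c, a secreted cue that can attract or repel depending on the receptor complex, had 2485, 2286 and 2271 normalized counts in the WT cultures at 12 h and 5768, 7187 and 5077 at 48 h. The HET cultures had 2499.5, 1829.5 and 2481 at 12 h and 4162, 4171 and 3560.1 at 48 h. All 48 h cultures lay above all 12 h cultures in both genotypes, and every HET culture at 48 h lay below every WT culture. The log2 change was 1.34 in WT (SE 0.14, limma adjusted p = 2.23e-05) and 0.81 in HET (SE 0.14, limma adjusted p = 0.0121). Sema3f, a repellent that prefers the neuropilin Nrp2, fell by 0.35 on the log2 scale in WT (limma adjusted p = 0.0464), though its WT times overlapped. The other 5 had WT log2 changes from -0.20 for Sema3g to 0.24 for Sema3e and did not pass.

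Of the 13 class 4 to 7 semaphorins, which are membrane-bound, 1 rose and 3 fell in WT. Sema4a had 157, 167 and 176 normalized counts in WT at 12 h and 60.4, 51.8 and 74.2 at 48 h. HET cultures had 125, 227 and 179 at 12 h and 95.3, 84.5 and 110.3 at 48 h. The times did not overlap in either genotype. Its log2 change was -1.42 in WT (SE 0.20, limma adjusted p = 7.78e-05) and -0.83 in HET (SE 0.20, limma adjusted p = 0.0192). Sema5a, a bifunctional cue with thrombospondin repeats, had 5023, 3823 and 4393 normalized counts in WT at 12 h and 2253, 1275 and 1834 at 48 h. The HET cultures had 4455, 3129 and 2562 at 12 h and 1652, 2105 and 1996 at 48 h. Again the times were separate in both genotypes. Its log2 change was -1.33 in WT (SE 0.23, limma adjusted p = 0.000237) and -0.79 in HET (SE 0.23, limma adjusted p = 0.0323). Sema4d, a ligand of Plxnb1, fell by 0.68 in WT (limma adjusted p = 0.00563), and its HET log2 change of -0.17 did not pass. Sema4b rose by 0.43 in WT and by 0.61 in HET (limma adjusted p = 0.0104 and 0.0132). The other 9 ranged from -0.46 for Sema7a to 0.56 for Sema6a in WT without passing.

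Plexins and neuropilins, the receptors of these ligands, moved in both directions. In WT, 3 of 9 plexins rose and 1 fell, and the 2 neuropilins split. Plxna4, a signalling partner of neuropilins in sensory axons, had 10053, 8084 and 12992 normalized counts in WT at 12 h and 22151, 25824 and 23918 at 48 h. HET cultures had 9313, 4723 and 7236 at 12 h and 17196, 18336 and 5670.4 at 48 h. Replicate 3 of HET at 48 h lay within the HET range of 12 h, while the other HET cultures of that time lay above all 12 h cultures. The log2 change was 1.23 in WT (SE 0.34, limma adjusted p = 0.0066) and 0.83 in HET, where it did not pass, or 1.38 in HET without that culture.

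Nrp1, the co-receptor for class 3 semaphorins and for the growth factor VEGF, had 5309, 4845 and 5526 normalized counts in WT at 12 h and 11122, 10097 and 9412 at 48 h. The HET cultures had 5237, 4885 and 4824 at 12 h and 9971, 10097 and 4035 at 48 h. As for Plxna4, replicate 3 of HET was the lowest of its group, but for Nrp1 it also lay below all 12 h cultures. Nrp1 rose by 0.96 in WT (SE 0.23, limma adjusted p = 0.00289), and its HET value of 0.57 did not pass and was 1.02 without replicate 3. Nrp2, which pairs mainly with Sema3f, fell by 0.59 in WT (limma adjusted p = 0.00331).

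Plxnc1 had 12036, 18068 and 23974 normalized counts in WT at 12 h and 8180.0, 6800.5 and 10642 at 48 h. In HET it had 18975, 24647 and 25096 at 12 h and 12766, 11843 and 22967 at 48 h. The WT times were separate, whereas replicate 3 of HET at 48 h stayed within the HET range of 12 h. The log2 change was -1.05 in WT (SE 0.24, limma adjusted p = 0.00212) and -0.59 in HET (limma adjusted p = 0.105). Without that culture the HET fall passed. The class B plexins Plxnb1 and Plxnb2, receptors of class 4 semaphorins, rose in both genotypes. Plxnb1 changed by 1.17 in WT and 0.76 in HET (limma adjusted p = 0.000742 and 0.04). Plxnb2 changed by 1.01 in WT and 0.86 in HET (limma adjusted p = 0.000482 and 0.0152). With the plain adjusted columns the HET change of Plxnb1 was 0.66 and no longer passed (limma adjusted p = 0.068).

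Ephrin-A ligands changed in WT in 4 of 5 cases, 3 higher and 1 lower. Efna4 had 4.90, 11.4 and 7.29 normalized counts in WT at 12 h and 33.5, 33.5 and 27.8 at 48 h. The groups did not overlap, though the level is among the lowest of the table. Its log2 change was 1.94 (SE 0.47, limma adjusted p = 0.00313) in WT. Its HET value was 1.31 (limma adjusted p = 0.070), and the HET rise passed without replicate 3 of HET at 48 h. Efna3 rose by 1.58 in WT (SE 0.36, limma adjusted p = 0.0022), from 59.4, 36.1 and 21.3 to 79.9, 183 and 89.1 normalized counts. Efna2 rose by 0.74 (limma adjusted p = 0.0151), though its WT times overlapped. Efna1, by far the most abundant ephrin, fell by 0.54 (limma adjusted p = 0.0038). The 3 ephrin-B genes, which are transmembrane ligands, ranged from -0.06 to 0.28 in WT and from -0.35 to 0.35 in HET without passing.

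The largest rise and the largest fall of the 69 genes in WT, Epha7 and Ephb1, were both in Eph receptors. In WT, 6 of 8 EphA receptors passed, 2 higher and 4 lower, and 4 of 5 EphB receptors, 2 in each direction. Epha7, a receptor for ephrin-A ligands with truncated forms that lack the kinase, had 162, 172 and 253 normalized counts in WT at 12 h and 1525, 1708 and 1013 at 48 h. In HET it had 184, 133 and 187 at 12 h and 1280.0, 1009 and 219.5 at 48 h. All 48 h cultures exceeded all 12 h cultures of their genotype, but replicate 3 of HET did so narrowly. The log2 change was 2.84 in WT, a 7.18-fold rise (SE 0.45, limma adjusted p = 0.000137). It was 1.98 in HET (SE 0.45, limma adjusted p = 0.0157), or 2.77 without replicate 3. Epha3 rose by 1.22 in WT (limma adjusted p = 0.00539), and its HET value was 0.90 (limma adjusted p = 0.069). Without replicate 3 the HET rise of Epha3 passed.

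Epha4, a receptor that binds ephrins of both classes, had 423, 342 and 296 normalized counts in WT at 12 h and 137, 111 and 157 at 48 h. The HET cultures had 409, 321 and 276 at 12 h and 163, 199 and 210.0 at 48 h. Epha6 had 842, 764 and 854 in WT at 12 h and 382, 361 and 331 at 48 h, and in HET 792, 701 and 499.7 at 12 h and 384, 412 and 325 at 48 h. For both receptors the 2 times were separate in each genotype, and replicate 3 of HET lay close to its group. Epha4 fell by 1.38 in WT and by 0.80 in HET (limma adjusted p = 0.000122 and 0.025). Epha6 fell by 1.19 in WT and by 0.81 in HET (limma adjusted p = 8.57e-05 and 0.0151). Epha2 fell by 0.54 in WT (limma adjusted p = 0.0165), though its WT times overlapped. Epha8, at 0.128 FPKM, fell by 0.71 (limma adjusted p = 0.0414), a call that was lost without any one of 5 cultures: replicate 1 or 2 of WT at 12 h or at 48 h, or replicate 2 of HET at 24 h.

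Among EphB receptors, which bind ephrin-B ligands, Ephb2 rose by 1.14 in WT and 0.90 in HET (limma adjusted p = 0.00176 and 0.0304). Replicate 3 of HET at 48 h, at 210.0 normalized counts, lay within the HET range of 12 h. Without it the HET change of Ephb2 was 1.19. Ephb3 rose by 0.88 in WT and 1.07 in HET (limma adjusted p = 0.00962 and 0.0175), or 1.46 in HET without replicate 3. Ephb1 went from 90.4, 52.1 and 66.1 normalized counts in WT at 12 h to 15.6, 31.6 and 23.4 at 48 h. Its WT cultures were separate, and it fell by 1.54 (SE 0.36, limma adjusted p = 0.00258). In HET replicates 1, 2 and 3 at 48 h had 17.4, 57.1 and 50.5, so only replicate 1 left the range of 12 h. Ephb6 fell by 0.47 in WT (limma adjusted p = 0.026).

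**Figure D3:**
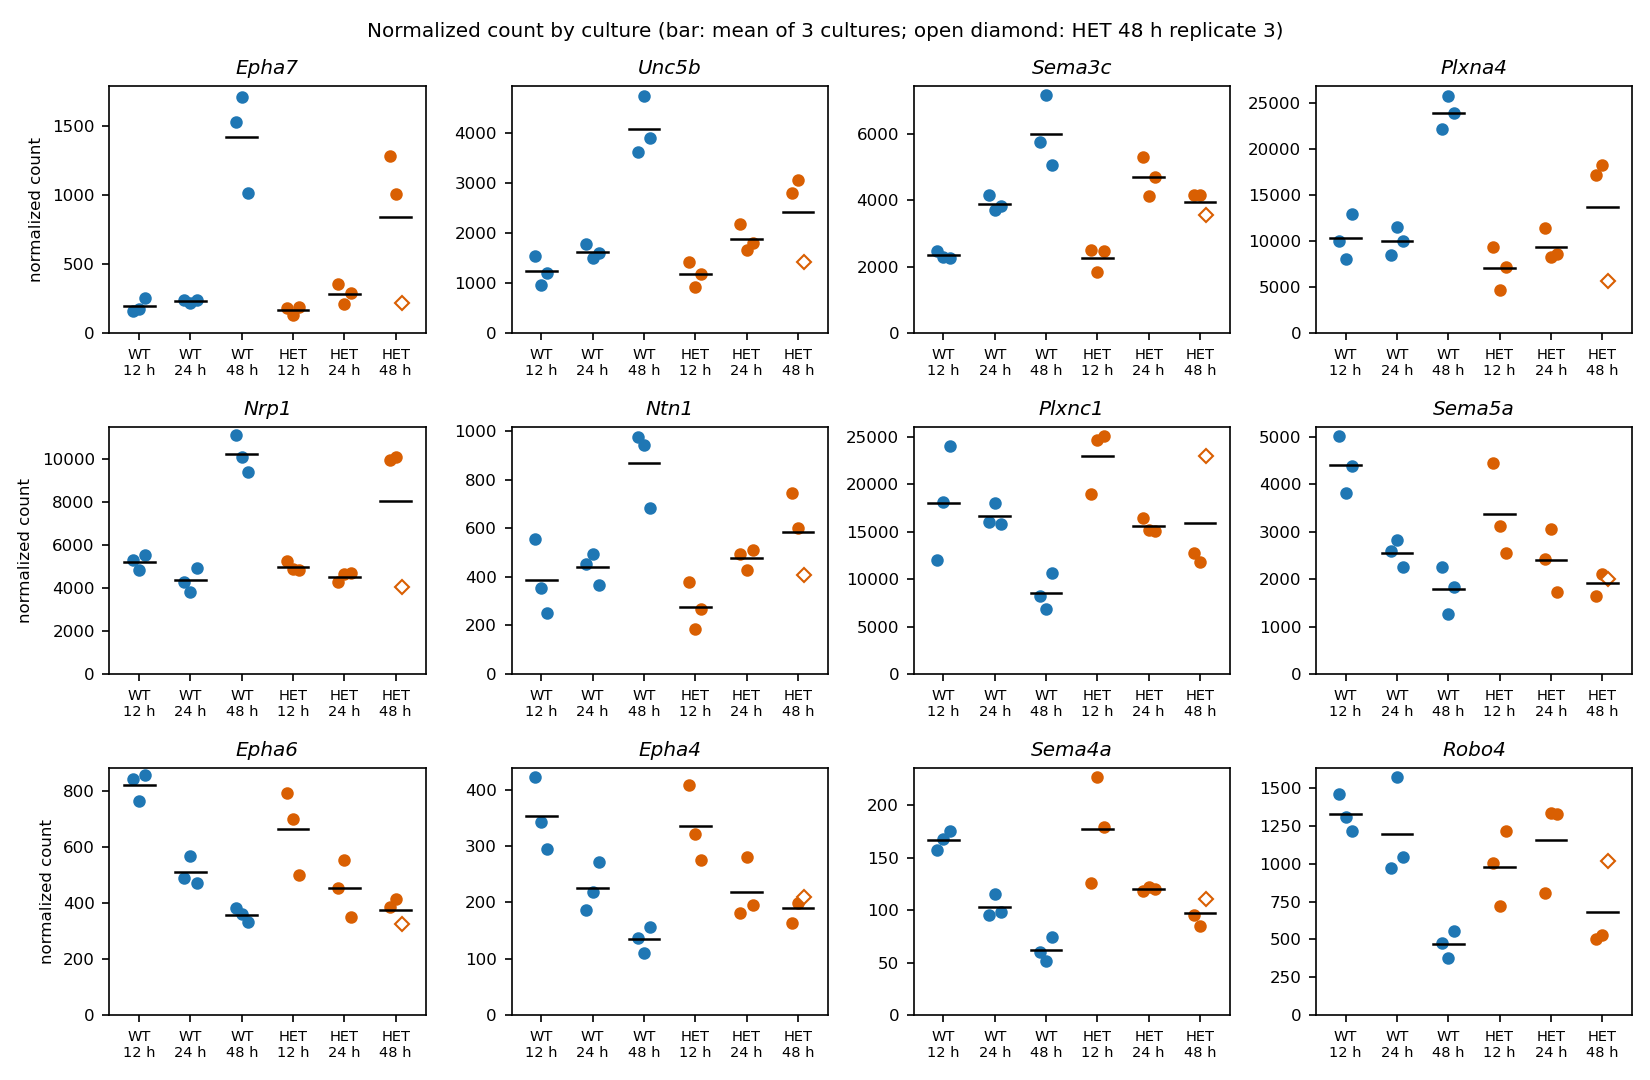
Normalized count in each of the 18 cultures for 12 guidance genes, with bars at group means and an open diamond for replicate 3 of HET at 48 h. That diamond lies at 5670.4 for Plxna4, among the HET cultures of 12 h, and at 4035 for Nrp1, below all 12 h cultures, but with its own group for Epha6 and Sema5a.

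Slit ligands and Robo receptors also split. Slit1, the most abundant Slit, fell by 0.43 in WT (limma adjusted p = 0.0296). Slit3 rose by 0.999 in WT and 1.12 in HET (limma adjusted p = 0.0191 and 0.0334). With the plain adjusted columns the HET change of Slit3 was 1.03 and no longer passed (limma adjusted p = 0.054). Robo2, the main Slit receptor here, had 12026, 13499 and 15922 normalized counts in WT at 12 h and 9359, 8378 and 10414 at 48 h. The groups were separate, and it fell by 0.55 (SE 0.10, limma adjusted p = 0.000529). Robo3, a divergent member at 0.164 FPKM, rose by 1.02 in WT and 1.59 in HET (limma adjusted p = 0.0412 and 0.0192). The WT call was lost with the plain adjusted columns (0.92, limma adjusted p = 0.064).

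Robo4, the Robo of blood vessel endothelium, had 1462, 1311 and 1216 normalized counts in WT at 12 h and 479, 379 and 552 at 48 h. In HET it had 1004, 722 and 1215 at 12 h and 499.9, 532 and 1017 at 48 h. WT times were separate, and replicate 3 of HET at 48 h stayed at the level of 12 h. Robo4 fell by 1.51 in WT (SE 0.27, limma adjusted p = 0.000362), and its HET value was -0.57 (limma adjusted p = 0.16). Without replicate 3 the HET fall of Robo4 passed. The 7 endothelial markers moved alongside it. Their summed FPKM was 88.8 to 120 in WT at 12 h and 52.3 to 72.8 at 48 h, with 3 of 7 lower past the threshold and none higher. In HET at 48 h the sum was 57.5 to 82.5, the highest in replicate 3. The part of these markers in the Robo4 result was not tested.

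Of the netrin system, 1 of 4 ligands and 1 of 5 receptors passed in WT. Ntn1, the founding netrin, had 554, 354 and 251 normalized counts in WT at 12 h and 977, 942 and 682 at 48 h. Among HET cultures the values were 377, 183 and 269 at 12 h and 745, 599.5 and 407 at 48 h. The times were separate in both genotypes. The change was 1.22 in WT and 1.09 in HET (SE 0.28, limma adjusted p = 0.00235 and 0.0232). Unc5b, a repulsive netrin receptor, had 1537, 951 and 1201 in WT at 12 h and 3617, 4745 and 3889.7 at 48 h. In HET it had 1412, 926 and 1173 at 12 h and 2808, 3062 and 1412 at 48 h. Replicate 3 of HET exceeded the highest HET culture of 12 h by less than 1 count, and the other HET cultures of 48 h were well above it. Unc5b rose by 1.75 in WT and by 0.99 in HET (SE 0.24, limma adjusted p = 6.08e-05 and 0.0181), or 1.34 in HET without replicate 3. Dcc, the attractive receptor, had a WT value of -0.11 and a HET value of 0.77, neither of which passed.

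Summed markers of other cells moved over the same interval in WT. Fibroblast markers summed to 39.9 to 88.2 FPKM at 12 h and 107 to 154 at 48 h, macrophage markers to 21.1 to 28.3 and 51 to 94.8, and proliferation markers to 1.06 to 1.39 and 6.14 to 14.6. Mural cell markers summed to 47.5 to 55.9 and 68.2 to 80.4 FPKM. The 5 neutrophil and red cell markers measured all fell, from sums of 6.93 to 231 FPKM at 12 h to 3.76 to 5.1 at 48 h. Glial markers summed to 544 to 695 FPKM at 12 h and 473 to 500 at 48 h. Their part in the changes of guidance genes was not tested. Sums in HET at 48 h were 87.4 to 155 for fibroblast and 1.44 to 9.03 for proliferation markers, and replicate 3 was the lowest in both. For neutrophil and red cell markers the sums were 5.8 to 68.6, with replicate 3 the highest.

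The bases upstream of 4 of the genes that changed in both genotypes are shown because these genes carried the change with time that both genotypes had. Each line gives the 250 bases before the start site, 5′ to 3′ on the gene's strand, from RefSeq on GRCm38.p6. Capitals mark the GC box GGGCGG on either strand, the element bound by Sp1-type factors. Epha7 (chr4:28812881-28813130, plus strand) and Sema3c (chr5:17574566-17574815, plus strand) rose. Epha4 (chr1:77515089-77515338, minus strand) and Sema5a (chr15:32244563-32244812, plus strand) fell.
Epha7: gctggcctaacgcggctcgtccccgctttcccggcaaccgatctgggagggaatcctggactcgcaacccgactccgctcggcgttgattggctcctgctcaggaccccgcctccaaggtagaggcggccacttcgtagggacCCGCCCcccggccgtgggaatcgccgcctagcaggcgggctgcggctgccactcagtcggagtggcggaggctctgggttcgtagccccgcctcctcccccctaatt
Sema3c: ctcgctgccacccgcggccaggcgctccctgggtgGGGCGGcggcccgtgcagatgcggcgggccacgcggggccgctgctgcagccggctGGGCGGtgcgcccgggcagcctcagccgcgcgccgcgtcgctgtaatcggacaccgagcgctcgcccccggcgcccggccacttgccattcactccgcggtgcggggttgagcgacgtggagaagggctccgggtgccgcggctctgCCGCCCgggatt
Epha4: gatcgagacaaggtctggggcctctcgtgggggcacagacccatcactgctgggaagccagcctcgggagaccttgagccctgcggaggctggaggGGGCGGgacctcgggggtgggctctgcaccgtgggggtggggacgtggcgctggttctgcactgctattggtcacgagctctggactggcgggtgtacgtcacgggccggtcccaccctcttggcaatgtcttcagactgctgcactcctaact
Sema5a: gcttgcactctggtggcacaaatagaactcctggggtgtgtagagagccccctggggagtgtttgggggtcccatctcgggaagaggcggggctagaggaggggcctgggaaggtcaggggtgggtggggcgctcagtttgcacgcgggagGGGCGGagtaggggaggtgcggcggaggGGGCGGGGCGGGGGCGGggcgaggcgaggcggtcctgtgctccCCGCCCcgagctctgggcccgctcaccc

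Both rising and falling genes had GC boxes in these windows. RefSeq had windows for 58 of the 69 members, 74 windows in all because some genes have several start sites. The GC box was in 70.3% of them, in 52.7% of the windows of all measured genes and in 32.7% of all 32817 windows. It was in 12 of 13 windows of the genes higher in both genotypes and in 6 of 7 of those lower in both. The AP-1 element TGANTCA, searched on both strands, was in 4.05% of member windows, 5.13% of the windows of measured genes and 6.75% of all windows. In the same order, the cyclic AMP element TGACGTCA was in 1.35%, 2.42% and 1.55%, and the STAT element TTCNNNGAA in 2.7%, 6.12% and 7.01%. None of these 3 was in a window of the genes that changed in both genotypes. Adjoining GC boxes in Sema5a merge into a single run of capitals, the cyclic AMP element as spelled does not contain the AP-1 element, and a match describes the letters alone.

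By 24 h few guidance genes passed the threshold in WT and more in HET, as among all genes. The genotype difference in the change from 12 to 24 h was not tested. In WT, 3 of 69 passed against 12 h, 2 higher and 1 lower, beside 3.62% of all genes. The WT cultures of the 2 times were separate for 10 members higher and 10 lower at 24 h, or 14.5% each, beside 18% and 8.94% of all genes. Efna2 had 283, 188 and 213 normalized counts at 12 h and 425, 467 and 426 at 24 h. Sema3c had 4167, 3720.0 and 3833 at 24 h, above all its 12 h cultures. Epha6 had 489.6, 568 and 472 at 24 h, below all of them. The log2 changes were 0.96, 0.73 and -0.69 (limma adjusted p = 0.0353, 0.0212 and 0.0415). All 3 calls were lost without any one of 5 cultures: replicate 2 or 5 of WT at 12 h, or any replicate of WT at 24 h.

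In HET, 12 members passed from 12 to 24 h, 10 higher and 2 lower, beside 18.9% of all genes. The same 3 genes as in WT were among them: Efna2 and Sema3c higher in both genotypes, beside 2.73% of all genes, and Epha6 lower, beside 0.616%. Sema6a, a transmembrane ligand of class A plexins, had 8439, 3111 and 5370.5 normalized counts in HET at 12 h and 20082, 11828 and 11790.0 at 24 h. The 24 h cultures were all above those of 12 h, and at 48 h the HET cultures, at 5651, 6372 and 6359.6, lay within the 12 h range. Sema6a rose by 1.44 to 24 h (SE 0.29, limma adjusted p = 0.00391). The WT cultures had 12079, 19455 and 11372 at 24 h, against 7948, 7502 and 7490.4 at 12 h, and this WT change did not pass. Robo3 rose by 1.65, Efna2 by 1.42 and Ephb2 by 1.15 in HET (limma adjusted p = 0.00912, 0.00167 and 0.00601). Robo2 fell by 0.35 and Epha6 by 0.55 (limma adjusted p = 0.0266 and 0.0351), and both calls were lost without replicate 2 of HET at 12 h, or replicate 1 or 5 of HET at 24 h. The comparisons of 24 h and 48 h with 12 h share the 12 h cultures of a genotype.

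Between genotypes no guidance gene passed at 12 or 24 h in limma, and at 48 h 0 passed without a replicate block and 12 with it. At 12 h 0 of 69 passed, beside 0.00581% of all genes, and 10 had an unadjusted p under 0.05, all lower in HET, or 14.5% beside 8.41% of all genes. By the authors' deposited table, FDR was under 0.05 for 0 members at 12 h, beside 0.0233% of all genes, and for 0 at 24 h, beside 0.0116%. Members leaned to lower values in HET: 58 of 69 log2 differences were below 0, with a median of -0.30, against -0.016 for all genes. In 16 members, or 23.2%, every HET culture lay below every WT culture, beside 8% of all genes, and in 0 members every HET culture lay above, beside 7.07%. The 16 were Efna5, Efnb1, Efnb2, Sema4b, Sema4f, Slit2 and Slit3 among ligands, and Nrp2, Plxna1, Plxnb2, Ephb2, Ephb3, Robo1, Robo3, Robo4 and Unc5a among receptors. The median stayed between -0.32 and -0.21 when any one of the 6 cultures of 12 h was left out, and was -0.21 without replicate 2 of HET, the lowest HET culture for 37 of the 69 genes.

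Single genes show the size of this lean. Ephb3 had 202, 245 and 200.4 normalized counts in WT at 12 h and 111, 104 and 139 in HET, a difference of -0.87 (SE 0.25, limma adjusted p = 0.577). Nrp2 had 5750.0, 4989.8 and 5091 in WT and 4580.4, 3364 and 3676 in HET, a difference of -0.46 (SE 0.14, limma adjusted p = 0.577). Plxna1, a co-receptor of neuropilins, had 2861, 2529 and 3048 in WT and 2435, 1831 and 2218 in HET. For each of these genes the genotypes were separate, but none passed across all genes. Robo3 and Slit3, both low in the table, had differences of -1.06 and -0.82 and the same adjusted p of 0.577.

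Of the markers of other cells, 0 passed in limma at 12 h, though some lists leaned to one side. Of the 7 endothelial markers, 7 were below 0 in HET against WT, with a median of -0.31 and 2 at an unadjusted p under 0.05, and their sum was 88.8 to 120 FPKM in WT and 63.5 to 105 in HET. Fibroblast markers were below 0 in 5 of 6 (median -0.28), with sums of 39.9 to 88.2 and 47.9 to 73.2 FPKM. All 5 neutrophil and red cell markers measured were above 0 (median 1.10), with sums of 6.93 to 231 and 93.5 to 231 FPKM. The sums of WT and HET overlapped for each of these lists. Below 0 were also 6 of 7 macrophage markers (median -0.15), 8 of 10 glial markers (median -0.16) and 3 of 5 mural cell markers (median -0.17). Sensory neuron markers summed to 6410 to 8130 FPKM in WT at 12 h and to 7540 to 9050 in HET, ranges that also overlapped. The part of these markers in the difference of the guidance genes was not tested.

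Transcript length also moved with this difference. The members had a median length of 4726 bases, recovered from the authors' FPKM, against 2696 for all genes. Across all genes the log2 difference at 12 h had a Spearman rho of -0.21 with length, a description over genes that share the same libraries. In the fifth of genes with the longest transcripts, which held 38 of the 69 members, the median difference of all genes was -0.11 and that of the members -0.35. There, 16% of all genes and 9 of the 38 members had every HET culture below every WT culture. Among genes with transcripts of 3158 to 4509 bases, which held 22 members, the median was -0.033 for all genes and -0.31 for members. In that range, 9.39% of all genes and 7 of the 22 members had every HET culture below every WT culture. Shorter ranges held 3, 4 and 2 members, with medians of 0.11, -0.0037 and -0.18, beside 0.043, 0.024 and -0.001 for all genes. The part of length in the 12 h difference was not tested beyond these values. At 24 h, when the members' median difference was -0.035, the rho was -0.15, and at 48 h it was 0.046.

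At 24 h the genotypes were close. Again 0 of 69 passed, beside 0.00581% of all genes, none had an unadjusted limma p under 0.05, beside 1.15% of all genes, and the median difference was -0.035. Genotypes were separate for Sema4a, higher in HET, and for Dcc and Ephb3, lower in HET, beside 2.81% and 2.79% of all genes. The lowest unadjusted p belonged to Dcc, with 59.8, 40.0 and 23.6 normalized counts in WT and 23.1, 20.7 and 23.4 in HET. All HET cultures were below the lowest WT culture, the highest of them by less than 1 count, and the difference was -0.75 (SE 0.37). Efna4 had a difference of 0.94, Sema3c of 0.27, Sema4d of -0.25 and Sema4a of 0.23.

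**Figure D4:**
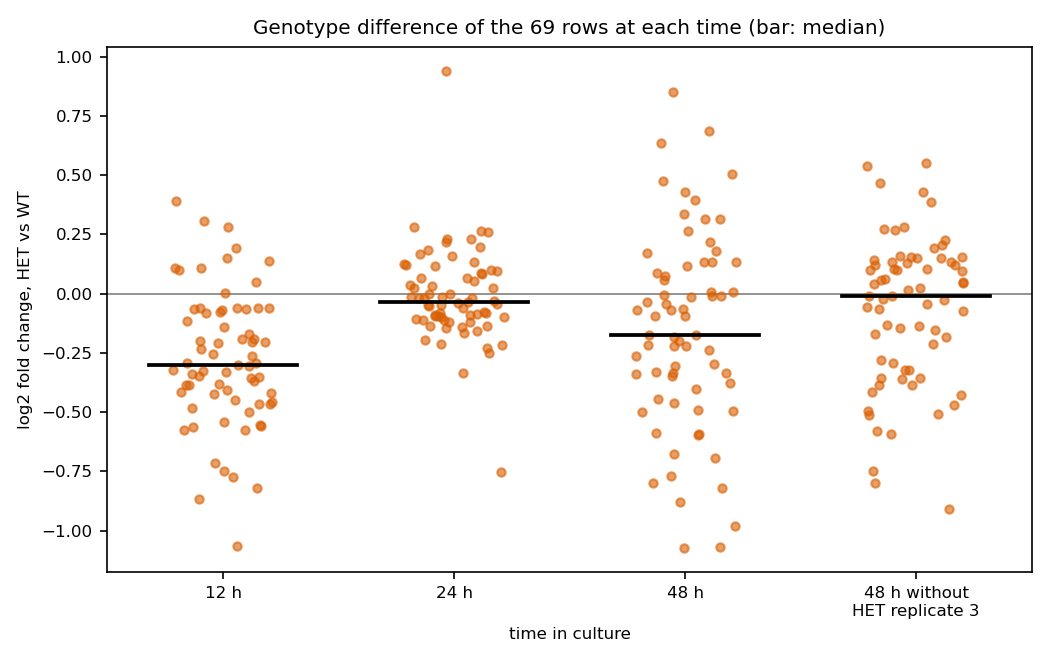
Log2 difference HET against WT of each of the 69 genes at 12, 24 and 48 h, and at 48 h without replicate 3 of HET, with bars at medians. The medians were -0.30, -0.035, -0.17 and -0.009.

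At 48 h 0 of 69 passed without a replicate block, beside 0% of all genes, and 19 had an unadjusted limma p under 0.05, 5 higher and 14 lower in HET, or 27.5% beside 22% of all genes. Without a block, 5 passed when replicate 3 of WT, or replicate 1 or 2 of HET, at 48 h was left out, beside 5.41%, 4.28% and 2.98% of all genes. With replicate 2 of HET at 12 h or replicate 1 of HET at 24 h left out, 1 passed, beside 0.983% and 1.09% of all genes. Same-numbered WT and HET cultures deviated together at this time. With the replicate number as a block, 12 members passed, or 17.4% beside 10.4% of all genes. Efna1, Plxnc1 and Robo2 were higher in HET, and Sema3c, Sema4f, Plxna4, Plxnb1, Plxnb2, Epha7, Ephb2, Ephb3 and Unc5b lower. With a block for each number within each time, an alternative added after seeing the data, 18 passed, beside 12.3% of all genes. By the authors' deposited table, FDR was under 0.05 for 9 members at 48 h, 2 higher and 7 lower, beside 5.98% of all genes.

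The 5 members with the smallest p at 48 h had all changed from 12 to 48 h in WT. These 2 comparisons share the WT cultures of 48 h, so they are not independent. Sema3c, described above, differed by -0.59 (SE 0.14, limma adjusted p = 0.0516, or 0.0083 with the block). Plxnc1 had 8180.0, 6800.5 and 10642 normalized counts in WT and 12766, 11843 and 22967 in HET, a difference of 0.85 (limma adjusted p = 0.0695, or 0.0092 with the block). The genotypes were separate for both genes. Unc5b differed by -0.82 (limma adjusted p = 0.076, or 0.0184 with the block) and Plxnb1 by -0.77 (limma adjusted p = 0.0798, or 0.0294 with the block). Robo2 had 9359, 8378 and 10414 in WT and 10993, 11533 and 12966 in HET. It was higher in every HET culture, by 0.34 (limma adjusted p = 0.0853, or 0.0267 with the block).

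Most of these differences were smaller without replicate 3 of HET. Of the 33 members that changed with time in WT, this culture was the nearest of the HET cultures at 48 h to the WT mean of 12 h for 19, replicate 2 for 8 and replicate 1 for 6. This held for 12 of the 17 that rose. Among the 16 that fell the split was more even, with replicate 3 nearest for 7, replicate 2 for 5 and replicate 1 for 4. Of the 18 members past the threshold with a block in each time, all 18 kept their sign without replicate 3, 17 became smaller and 9 had an unadjusted limma p under 0.05. Without it the median difference at 48 h was -0.009 and 11 members had an unadjusted p under 0.05, or 15.9% beside 11.5% of all genes. Sema3c was then -0.51, Plxnc1 0.55, Unc5b -0.47, Epha7 -0.28 in place of -1.07, and Plxna4 -0.43 in place of -0.98. These values keep replicate 3 of WT at 48 h, the same-numbered partner of the culture left out. They therefore split a pair, and what the 2 cultures contribute together was not tested. In 5 members every HET culture of 48 h lay above every WT culture, beside 9.57% of all genes, and in 8 below, beside 14.4%. These shares, 7.25% and 11.6%, were under those of all genes. Macrophage markers summed to 51 to 94.8 FPKM in WT at 48 h and 28.7 to 47.2 in HET, and proliferation markers to 6.14 to 14.6 and 1.44 to 9.03. Their part in these differences was not tested.

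Averaged over the 3 times, 0 of 69 passed, beside 0.0174% of all genes, and 19 had an unadjusted limma p under 0.05, 3 higher and 16 lower in HET, or 27.5% beside 13.5% of all genes. With the replicate number as a block 2 passed, Ephb2 and Ephb3, both lower in HET, beside 1.19% of all genes. With a block for each number within each time, added after seeing the data, 6 passed, beside 3.22%: Plxnc1 higher, and Ephb2, Ephb3, Plxna2, Plxnb1 and Plxnb2 lower. Same-numbered cultures were not paired at 12 or 24 h. The lowest p without a block was that of Ephb3, with a difference of -0.59 (SE 0.15, limma adjusted p = 0.31, or 0.0283 with the block). Plxnb2 had -0.33, Sema4f -0.31, Plxna4 -0.55 and Sema6a -0.47. The change from 12 to 48 h itself differed between genotypes for 0 of 69, beside 0% of all genes, and 5 had an unadjusted limma p under 0.05, or 7.25% beside 8.92% of all genes. These were Sema3c (-0.53), Unc5b (-0.75), Robo4 (0.94), Epha2 (0.57) and Nrp2 (0.46), each with an adjusted p of 0.548. Genes that passed in WT and not in HET are thus not shown to differ between the genotypes. The genotype comparison at 12 h and the HET time comparisons share the HET cultures of 12 h.

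Other genes of the guidance pathways were followed through a list of 70, all measured, that held cytoplasmic effectors, adaptors and further cues. In WT 31 passed between 12 and 48 h, 15 higher and 16 lower, or 44.3% beside 47.1% of all genes. In HET 12 passed, 6 in each direction, or 17.1% beside 14.2% of all genes. With the plain adjusted columns the split was 11 higher and 19 lower in WT, and 1 higher and 8 lower in HET. Draxin, a secreted cue that binds netrin and Dcc, rose by 1.77 in WT (SE 0.31, limma adjusted p = 0.000306), Flrt2, a partner of Unc5 receptors, by 1.46 and the integrin subunit Itgb1 by 1.15. Nell2, a Robo3 ligand, fell by 1.35 (SE 0.19, limma adjusted p = 6.60e-05), Srgap1, a GTPase regulator bound by Robo receptors, by 1.08 and the cofilin phosphatase Ssh1 by 0.97. In HET, Flrt2, Itgb1 and Nell2 also passed, with changes of 1.41, 0.67 and -1.04. Between genotypes 0 of the 70 passed in limma at 12, 24 or 48 h, and 15, 0 and 19 had an unadjusted p under 0.05. These were 21.4%, 0% and 27.1%, beside 8.41%, 1.15% and 22% of all genes.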

How the data were processed

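RNA of 18 mouse DRG cultures was analysed from 1 deposited table of 17198 genes. The table's 18 columns of normalized counts, named so per the file headers, are a signal the authors had scaled: no value was whole and column totals were nearly equal (41509705 to 41509874). The authors also deposited FPKM values, plain adjusted signal columns (totals 39465712 to 44213485), log2 fold changes and p-values, used for comparison only. A rank score that the authors deposited entered no test. The submitters' processing notes name mm10, CASAVA 1.8.2 and edgeR; the aligner and counting method are not given in the sources used here. Values were not counts, so depth is unknown, no interval needing it was computed, and the planned DESeq2 alternative was not run.

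Groups and replicate numbers came from sample titles. log2(normalized count + 1) was fitted with limma 3.58.1 (R 4.3.3; lmFit, eBayes with trend, 1 coefficient per group, 12 residual degrees of freedom), a script also tested on simulated data. P-values were 2-sided and adjusted by the Benjamini-Hochberg method over all 17198 genes within each of 9 comparisons, with a threshold of 0.05. A minimum mean of 1 removed 0 genes. Logarithms of the plain columns spanned 15 of 17 possible dimensions, so the residual degrees of freedom are counted too high.

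Same-numbered samples were taken as paired where every pair's deviations from the group means correlated above 0.1. This held for the genotypes at 48 h (r from 0.21 to 0.46), not at 12 h (0.03 to 0.19) or 24 h (-0.21 to 0.26), nor in any time comparison. Genes described singly were Dynlrb1, the most abundant member of each family, the members past the threshold that changed most with time (up to 8 per direction to 48 h and 4 to 24 h), and the 5 with the lowest p in each genotype comparison; others are given by range or count. Members, lists and rules were chosen with earlier results of these data known.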

Additional observations from a re-analysis of the deposited data

How the results depend on the processing

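No log2 change of a gene described singly reversed under the settings tried. Counts of guidance genes past the threshold stayed within 1.5 times with 0.1 added in place of 1, with a minimum mean of 5, with no filter and with the plain adjusted columns. With the replicate number as a block, which is a pairing borne out at 48 h only, 12 genes passed between genotypes at 48 h, 2 in the averaged comparison, 6 from 12 to 24 h in WT and 29 from 12 to 48 h in HET, beside 10.4%, 1.19%, 7.08% and 29.6% of all genes. With the block and the removed directions also taken into account, the counts were 15, 11, 11 and 33, beside 10.3%, 4.12%, 12.4% and 29.4% of all genes, and 23 from 12 to 24 h in HET, beside 27.8%. With a block for each number within each time, added after seeing the data, 18 passed at 48 h and 6 in the averaged comparison, beside 12.3% and 3.22%. Quantile normalization gave 1 at 48 h, beside 1.6%. Fits to only the samples compared gave 6 from 12 to 24 h in WT, beside 4.88%, and 0 from 12 to 48 h in HET, beside 0%. With 1 culture left out, the counts ran from 0 to 5 between genotypes at 48 h, the highest without replicate 3 of WT, replicate 1 of HET or replicate 2 of HET at 48 h. They ran from 0 to 4 from 12 to 24 h in WT, 25 to 36 from 12 to 48 h in WT, 8 to 18 from 12 to 24 h in HET and 0 to 28 from 12 to 48 h in HET. The other genotype counts were 0 in each. The cause of these shifts was not tested. The log2(value + 1) scale understates changes of the lowest genes, such as Efna4, Robo3 and Dcc.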
